A study of Sus scrofa with 24 samples.

Results

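miR-193a, miR-365 and miR-455 were followed in porcine subcutaneous (BF) and intramuscular (IMF) adipocytes over 8 days of differentiation in culture. The entries were taken by name from the table of miRNA values, as every pig entry named miR-193a, miR-193b, miR-365, miR-455 or miR-203 with any letter or arm. Of the 1587 entries of the table, 6 carried such a name: ssc-miR-193a-3p, ssc-miR-193a-5p, ssc-miR-365-3p, ssc-miR-365-5p, ssc-miR-455-3p and ssc-miR-455-5p. 0 entries were named miR-193b and 0 were named miR-203, so these miRNAs were not analysed here.

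Preadipocytes came from 3 Yorkshire piglets 6 days old, the BF cells from fat under the skin of the back and the IMF cells from the longissimus dorsi muscle. Near confluence the cells of both sources received a medium with isobutylmethylxanthine, dexamethasone and insulin, followed by insulin alone and then growth medium. Day 0 stands for the cells before induction, and cells were also collected on day 2, day 4 and day 8. Each of the 8 groups (BF-0d, BF-2d, BF-4d, BF-8d, IMF-0d, IMF-2d, IMF-4d and IMF-8d) had 3 libraries, 24 in all. All groups share the breed and the age, and the 2 sources share the media on each day. The medium changed along with the day, so effects of day and medium cannot be told apart. The cells are primary cultures that can hold other cell types of the tissue.

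These miRNAs are named regulators of brown fat from work in rodents and human cells. A miRNA binds messenger RNAs that carry a match to its seed and lowers their translation or stability. In that work miR-193b and miR-365, which lie close together in the genome, and miR-455 favour the brown fat program. A known target of miR-193b and miR-455 is Runx1t1, an inhibitor of brown adipocyte formation, and miR-193a-3p has the same seed as miR-193b-3p. Pigs have a disrupted UCP1 gene, which encodes the heat-producing protein of brown fat mitochondria, and the mRNA libraries of the study were not analysed here. The levels below are therefore levels of miRNAs only.

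The 6 mature sequences are shown because the seed, bases 2 to 8 from the 5′ end and printed in capitals, decides which messages a miRNA can bind, and because the arms of one hairpin differ in it. They are RefSeq sequences of the Sscrofa11.1 build, which the submitters also used.
ssc-miR-193a-5p: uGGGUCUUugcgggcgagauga
ssc-miR-193a-3p: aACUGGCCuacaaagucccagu
ssc-miR-365-5p: gAGGGACUuucaggggcagcugu
ssc-miR-365-3p: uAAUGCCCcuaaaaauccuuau
ssc-miR-455-5p: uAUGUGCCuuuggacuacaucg
ssc-miR-455-3p: gCAGUCCAugggcauauacac
No seed was shared between these 6 entries. Among the 958 entries with a known mature sequence, 0 others had the same mature sequence as one of the 6. The seed of miR-455-5p was also found in the predicted miRNA novel_miR_188 (cAUGUGCCccuguguuuccagc), which had a mean of 0.247 TPM over the 24 libraries.

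The hairpins lie in 3 regions of the genome. MIR193A (chr12:43336969-43337048, minus strand) and MIR365-2 (chr12:43324725-43324804, minus strand) are separated by 12164 bases, and RefSeq places no other gene over either of them. MIR365-1 (chr3:28908137-28908216, minus strand) lies inside the long noncoding RNA LOC110259927 without touching an exon. MIR455 (chr1:254824200-254824279, plus strand) lies in an intron of COL27A1, a collagen gene, on the same strand.

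The 2 arms of miR-365 do not stand for the same loci. The sequence of miR-365-3p occurs 2 times in the genome, once in each MIR365 hairpin, so its reads cannot be assigned to chromosome 3 or chromosome 12. The sequence of miR-365-5p occurs only in MIR365-2, at chr12:43324776-43324798. The matching stretch of MIR365-1 (chr3:28908182-28908204, minus strand) is shown with the differing bases in capitals.
MIR365-1 5p side: gagggacuuuUGggggcagAugu
Counted from 1 at the 5′ end of miR-365-5p, it differs from it by C11U, A12G and C20A. It was the mature sequence of 0 of the 958 entries with a sequence. The authors accepted only perfect matches to the genome and then named known miRNAs by a BLAST search against miRBase. A read with the full sequence of miR-365-5p matches the chromosome 12 hairpin and no other place. Whether reads of the chromosome 3 stretch were also counted under this name was not tested.

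Values are in TPM, here the reads of an entry in every 1000000 reads that a library had on miRNAs. The libraries held from 4954845 to 16863560 such reads, so that 1 read was worth from 0.0593 to 0.202 TPM. The lowest depths among the 24 libraries were those of BF-8d replicates 2 and 3, with 6201608 and 4954845 reads. ssc-miR-21-5p, the most abundant miRNA, took from 49.0% to 60.5% of the reads in every library up to day 4, but from 27.9% to 40.3% in BF-8d and from 39.4% to 45.0% in IMF-8d. A TPM value is a share of its library, so that a fall of so large a share raises the others, and the fits were therefore also made with median-of-ratios scaling. Marker miRNAs of epithelium summed to at most 1.90 TPM and those of blood to at most 4.94 TPM in any library, while mesenchymal miR-143, miR-145, miR-199a and miR-214 summed to between 56879 and 103411 TPM.

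Averaged over the 24 libraries, miR-455-5p was the most abundant of the 6 entries with 322 TPM, rank 68 of 1587. miR-455-3p had 89.0 TPM, miR-365-3p 54.2 TPM, miR-193a-5p 44.0 TPM and miR-365-5p 19.3 TPM. miR-193a-3p had 1.38 TPM, rank 385, and was counted with only 6 to 33 reads per library. The 6 entries together made up from 369.9 to 805 TPM of a library. All 6 passed the filter on low values, a mean of 1 TPM or more over all libraries, which left 430 entries for the tests.

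**Figure D1:**
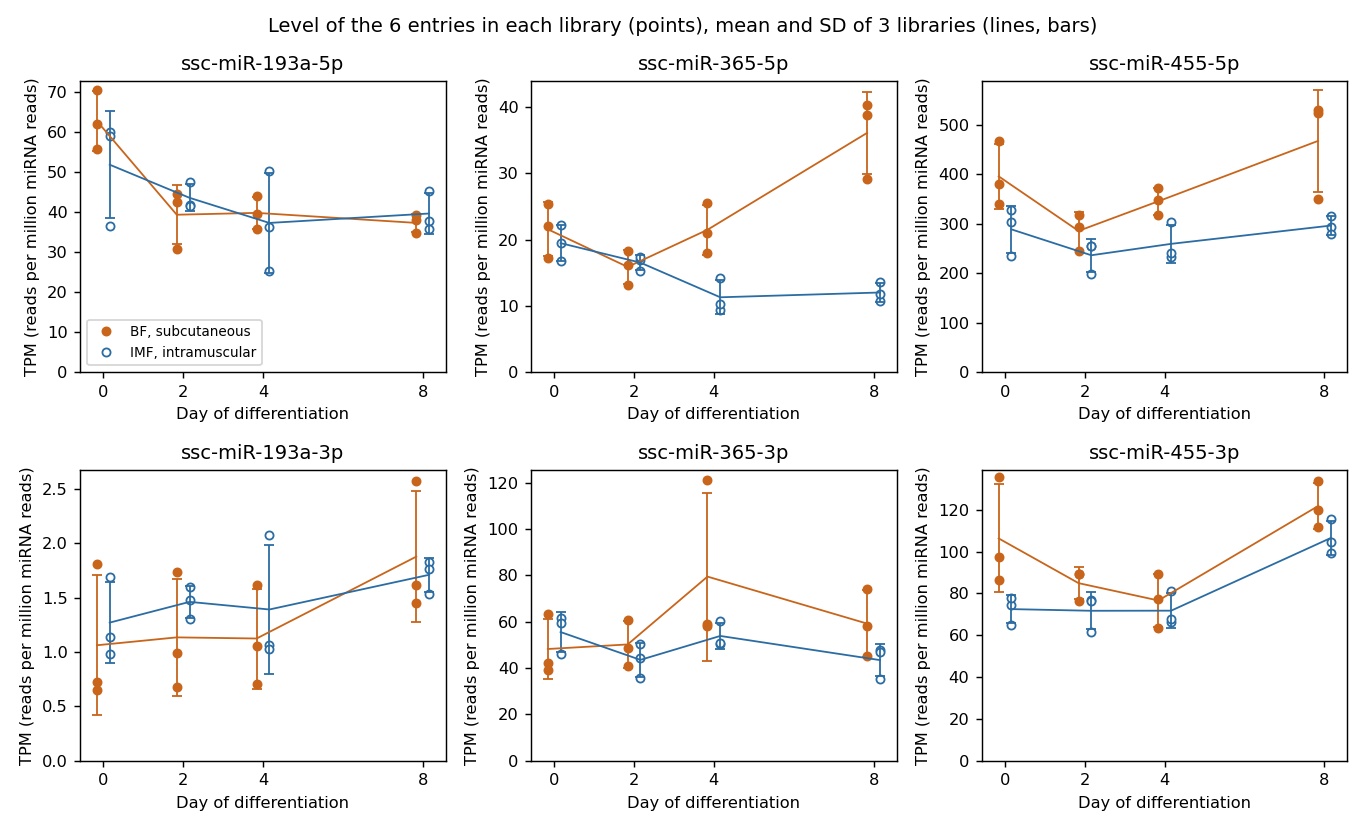
TPM of each entry in each library by day of differentiation (points, BF filled and IMF open), with the mean and SD of the 3 libraries of a group. miR-365-5p reached 29.1 to 40.4 TPM in BF-8d and 10.7 to 13.6 TPM in IMF-8d, while the libraries of the sources overlapped on every day for miR-365-3p and both arms of miR-193a.

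miR-365-5p was the entry that differed most between the sources. On day 8 it was 2.84-fold lower in IMF than in BF, and its course over the days differed between them: it rose in BF and fell in IMF from day 0 to day 8. On day 0 the BF libraries had 25.3, 22.1 and 17.3 TPM and the IMF libraries 19.4, 16.7 and 22.2 TPM. On day 2 the BF libraries had 16.1, 18.3 and 13.2 TPM and the IMF libraries 15.3, 16.9 and 17.4 TPM. The libraries of the sources overlapped on both of these days.

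On day 4 the BF libraries had 17.9, 25.5 and 21 TPM of miR-365-5p and the IMF libraries 9.41, 14.2 and 10.22 TPM. On day 8 the BF libraries had 29.1, 38.9 and 40.4 TPM and the IMF libraries 13.6, 10.7 and 11.8 TPM. Every BF library lay above every IMF library on days 4 and 8, days on which the libraries of the sources did not overlap for 50.2% and 51.2% of all tested entries. In whole reads, day 8 gave 200 to 373 in BF and 153 to 178 in IMF, and the BF library with the most miRNA reads, replicate 1, had the lowest TPM of its group.

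The fits were made with limma on log2(TPM + 1) over the 430 entries, a scale that understates the change of entries with low values. An entry was called a DE-miRNA at a Benjamini-Hochberg FDR under 0.05 with a fold change above 1.5. In BF-8d vs IMF-8d the log2 fold change of miR-365-5p was -1.504 (SE 0.20, adjusted p = 4.68e-05, limma). It ranked 60 of 430 by size, and 37.2% of the tested entries were called in this comparison, 25.1% as lower in IMF. The call held in every alternative fit, with log2 fold changes from -1.65 to -1.19, the smallest under median-of-ratios scaling.

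In BF-4d vs IMF-4d the log2 fold change of miR-365-5p was -0.88 (SE 0.24, adjusted p = 0.0125, limma), in a comparison where 36.3% of entries were called. This call was lost without the filter on low values, under median-of-ratios scaling (-0.47, adjusted p = 0.163), with edgeR (-0.45) and with DESeq2 (-0.48), and without BF-4d replicate 2 (-0.75) or IMF-4d replicate 1 (-0.77). On days 0 and 2 the log2 fold changes of -0.13 (SE 0.19) and 0.06 (SE 0.16) were not called.

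From day 0 to day 8 miR-365-5p rose in BF by 0.72 on the log2 scale (SE 0.22, adjusted p = 0.0153, limma), from 21.5 ± 4.05 to 36.1 ± 6.14 TPM (SD, n = 3). In IMF it fell by 0.65 (SE 0.16, adjusted p = 0.0217, limma), from 19.5 ± 2.74 to 12.01 ± 1.45 TPM (SD, n = 3). The libraries of day 0 and day 8 did not overlap in either source, as was so for 53.7% of all tested entries in BF and 48.8% in IMF. These comparisons called 42.8% of all entries in BF (27.9% higher, 14.9% lower) and 30.5% in IMF (19.8% higher, 10.7% lower). The rise in BF missed the fold criterion under median-of-ratios scaling (0.54, adjusted p = 0.0336) and with DESeq2 (0.57), and lost its call without the filter and without BF-0d replicate 3 (0.58) or BF-8d replicate 2 (0.66) or 3 (0.63). The fall in IMF lost its call without the filter and without IMF-0d replicate 1 (-0.65) or 3 (-0.55), or IMF-8d replicate 2 (-0.58) or 3 (-0.64).

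Whether the time course differed between BF and IMF was tested directly by the interaction of source and day, fitted to the 24 libraries together. miR-365-5p passed this test with an adjusted p of 2.69e-04 (limma, moderated F test), rank 30 of 430 by p, among 31.6% of entries that passed. It passed in every alternative fit, with adjusted p from 2.07e-06 to 0.0445. The change from day 0 to day 8 was lower in IMF than in BF by -1.37 on the log2 scale (SE 0.28, adjusted p = 8.25e-04, limma), and the step from day 2 to day 4 by -0.94 (SE 0.28, adjusted p = 0.0352, limma). These steps passed the test for 20.7% and 7.67% of all entries. In limma fits chosen after the values were seen, the first was -1.21 (adjusted p = 6.23e-04) under median-of-ratios scaling and did not pass without replicate 3 (-1.03, adjusted p = 0.0584). The step from day 2 to day 4 did not pass under median-of-ratios scaling (-0.67, adjusted p = 0.108), without the filter on low values (0.113) or without any replicate number (0.101 to 0.407). The other 5 entries did not pass the interaction test, with adjusted p from 0.352 to 0.875, although miR-455-3p passed it under median-of-ratios scaling (0.0483), with edgeR (0.0391) and with DESeq2 (0.0194).

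In the order of its group means, miR-365-5p was highest in BF-8d and the libraries of BF-8d did not overlap those of BF-0d, the next group (21.5 TPM). The neighbours after that, BF-4d (21.5), IMF-0d (19.5), IMF-2d (16.5), BF-2d (15.9), IMF-8d (12.01) and IMF-4d (11.3 TPM), overlapped each other step by step.

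**Figure D2:**
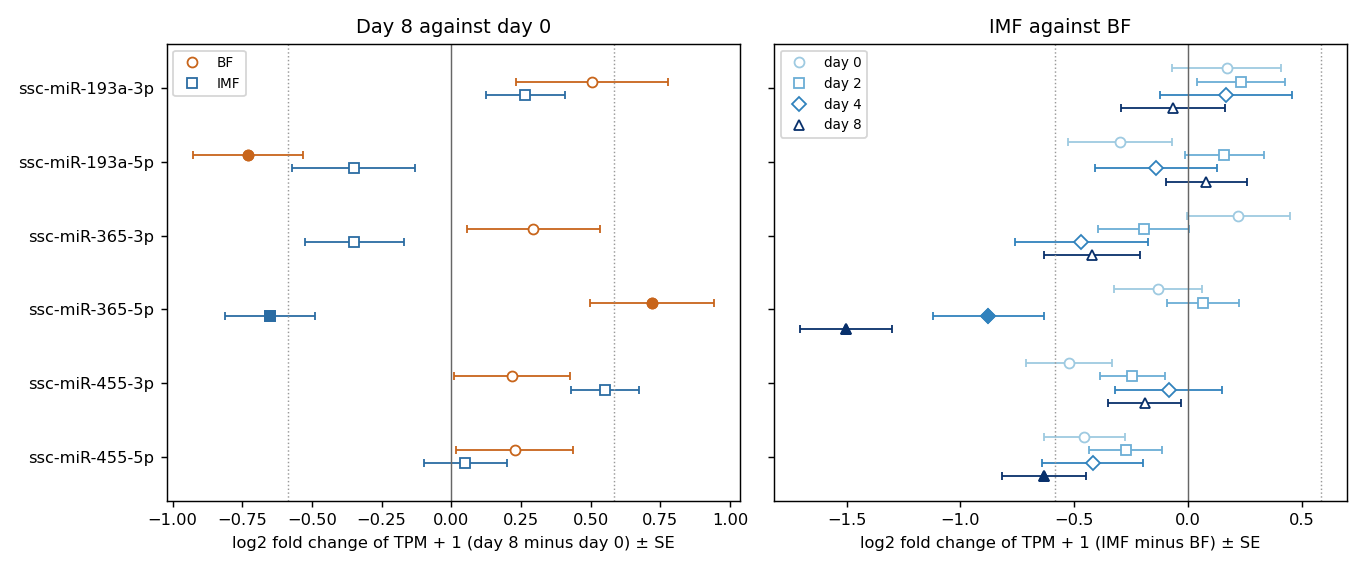
Log2 fold change of TPM + 1 for the 6 entries with its SE, on the left day 8 minus day 0 within each source and on the right IMF minus BF on each day, with DE-miRNAs as filled symbols and the fold change of 1.5 as dotted lines. miR-365-5p lies at 0.72 in BF and -0.65 in IMF over the days, and at -1.504 between the sources on day 8.

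The other arm of miR-365, miR-365-3p, which carries the seed usually taken as that of the family, was called in 0 of the 12 comparisons. Its means were 48.3, 50.2, 79.5 and 59.2 TPM in BF on days 0, 2, 4 and 8 and 55.6, 43.6, 53.9 and 43.5 TPM in IMF. BF-4d held 1 library apart from the others, replicate 2 with 121 TPM against 58.3 and 58.9 TPM. The other 23 libraries lay between 35.5 and 74.1 TPM. Between the sources the log2 fold change was -0.42 on day 8 (SE 0.21, adjusted p = 0.122, limma), of the same sign as that of miR-365-5p. It was called without BF-8d replicate 1 (-0.60, adjusted p = 0.0160, limma). Averaged over the days it was -0.22 (SE 0.13, adjusted p = 0.146, limma) and turned to 0.04 under median-of-ratios scaling. The edges of the BF-8d and IMF-8d values overlapped, with 45.2, 58.4 and 74.1 TPM in BF and 48.0, 46.9 and 35.5 TPM in IMF.

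The balance of the arms was followed within each library, since a ratio of 2 entries depends little on how a library is scaled when both are well above the 0.1 TPM added to each arm. For miR-365 the ratio of 5p to 3p TPM, so formed, was below 1 in all libraries, and in BF it was highest on day 8 with 0.644, 0.666 and 0.546. On BF-0d it was 0.401, 0.525 and 0.440, and on BF-4d 0.308, 0.211 and 0.358. In IMF it was lowest on day 4 with 0.188, 0.237 and 0.202, against 0.284, 0.230 and 0.333 on day 8. The BF-8d libraries lay above every other library for this ratio.

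On the log2 scale the miR-365 ratio averaged -1.33 in BF and -1.75 in IMF, a difference of -0.42 that had the same sign on 3 of the 4 days (p = 0.0191, adjusted p = 0.0478 over 9 ratio tests, exact two-sided permutation test within days). The ratio also varied between days in BF (p = 0.0131) and in IMF (p = 0.0212), each with an adjusted p of 0.0478 in exact permutation tests. These values lie just under 0.05, and all of them rose above it when any replicate number was left out, with adjusted p from 0.0694 to 0.311. For the difference between sources, pairing libraries of the same replicate number gave an adjusted p of 0.0796 in an exact sign-flip permutation test. By sequence the 3p arm can come from 2 hairpins and the 5p arm from 1, so a change of this ratio and a change in the share of the loci cannot be told apart.

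miR-193a-5p fell in BF over differentiation. The BF-0d libraries had 70.5, 55.8 and 62.1 TPM and the BF-8d libraries 34.8, 39.2 and 37.9 TPM, with no overlap, as for 53.7% of all entries. The fall from day 0 to day 8 was by 0.73 on the log2 scale (SE 0.20, adjusted p = 0.00668, limma) and was called in all alternative fits, from -0.92 to -0.64, in a comparison where 42.8% of all entries were called and 14.9% as lower. Most of the difference was already seen on day 2, when the BF libraries had 42.6, 44.6 and 30.9 TPM (log2 fold change -0.67, SE 0.19, adjusted p = 0.0972, limma). In this comparison of BF-0d and BF-2d 4.19% of entries were called. miR-193a-5p was not among them, but it was called under median-of-ratios scaling (-0.66, adjusted p = 0.0198), with edgeR (-0.66) and with DESeq2 (-0.66). These fits called 35, 56 and 56 of all 430 entries.

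In IMF, miR-193a-5p went from 60.1, 36.4 and 59.1 TPM on day 0 to 45.4, 37.9 and 35.7 TPM on day 8. Its log2 fold change was -0.35 (SE 0.22, adjusted p = 0.248, limma), and the days overlapped through replicate 2 of IMF-0d. The change from day 0 to day 8 was not shown to differ between the sources (difference 0.38, SE 0.31, adjusted p = 0.397, limma). Between BF and IMF the log2 fold changes were -0.30, 0.16, -0.14 and 0.08 on days 0, 2, 4 and 8, and none was called. The average over the days was -0.05 (SE 0.11) and 0.21 under median-of-ratios scaling, so it has no settled sign.

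miR-193a-3p, the arm with the seed shared by the miR-193 family, stayed near the lower end of the tested range. Group means ran from 1.06 ± 0.646 TPM in BF-0d to 1.88 ± 0.605 TPM in BF-8d (SD, n = 3), and from 1.27 ± 0.369 TPM in IMF-0d to 1.71 ± 0.154 TPM in IMF-8d (SD, n = 3). Single libraries lay between 0.652 and 2.57 TPM. It was called in 0 of the 12 comparisons, and at 6 to 33 reads a change of the size seen for miR-365-5p in BF may not be detectable at this depth.

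The 5p arm of miR-193a thus had far more reads than the 3p arm, with a ratio from 13.1 to 82.7 when 0.1 TPM was added to each. It was 37.0, 67.4 and 82.7 in BF-0d and 13.1, 25.3 and 22.2 in BF-8d. In IMF it was 33.7, 33.7 and 47.6 on day 0 and 23.6, 23.2 and 19.2 on day 8. The ratios of day 0 lay above those of day 8 in both sources. The variation between days had an adjusted p of 0.0478 in IMF and 0.0616 in BF (0.0408 with 1 TPM added), in exact permutation tests, and in IMF it was no longer under 0.05 when any replicate number was left out (0.0660 to 0.286). Between the sources the difference of -0.29 had an adjusted p of 0.108 in an exact permutation test.

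MIR193A and MIR365-2 are neighbours on chromosome 12, and miR-193a-5p and miR-365-5p changed in opposite directions between day 0 and day 8 in BF. The TPM of miR-365-5p divided by that of miR-193a-5p was 0.359, 0.396 and 0.278 in BF-0d and 0.834, 0.992 and 1.06 in BF-8d. On day 8 of IMF it was 0.299, 0.282 and 0.329, within or near the range of IMF-0d (0.323 to 0.459). The 3 BF-8d libraries were the highest of all 24, and the next value, in BF-4d replicate 2, was 0.711. This ratio was formed after the values were seen and is given without a test.

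**Figure D3:**
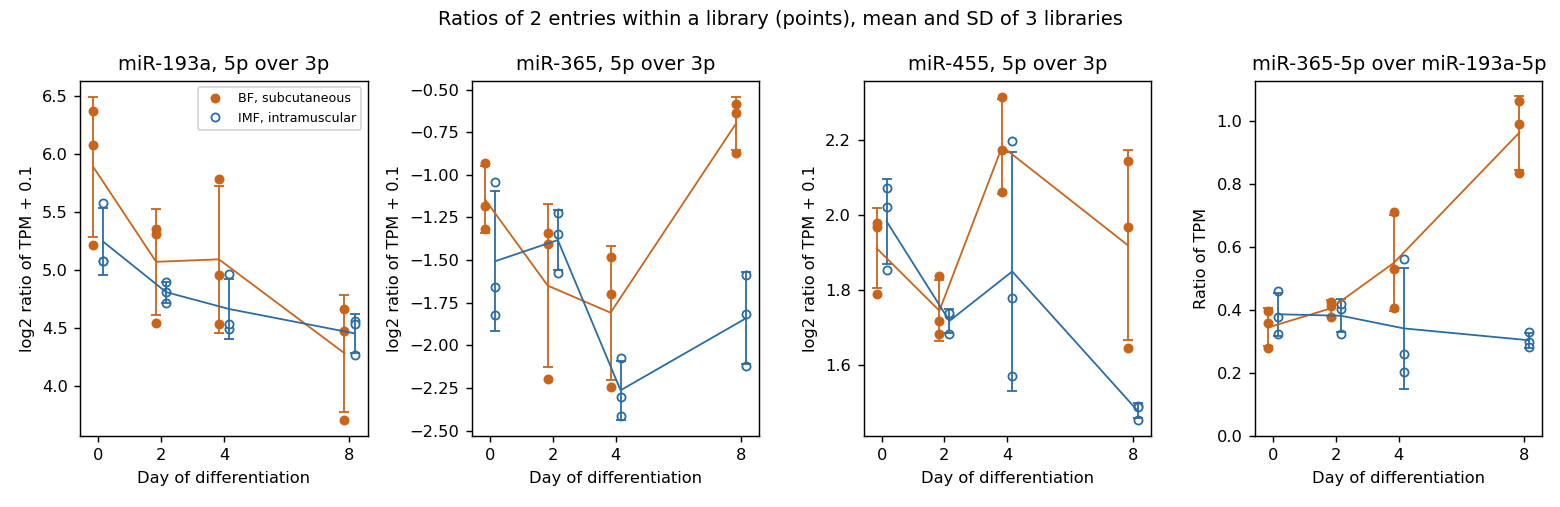
Ratios within each library by day (points, BF filled and IMF open, mean and SD of 3 libraries), as the log2 ratio of 5p to 3p for the 3 hairpins and, in the last panel, as the plain ratio of miR-365-5p to miR-193a-5p. The BF-8d libraries lie at 0.834 to 1.06 in the last panel and the IMF-8d libraries at 0.282 to 0.329.

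miR-455-5p, the most abundant entry of the 6, was higher in BF than in IMF on day 8. The BF-8d libraries had 349.6, 524 and 531 TPM and the IMF-8d libraries 317, 294 and 279 TPM. All BF values lay above the IMF values, with replicate 1 of BF close to them, and the sources did not overlap for 51.2% of all entries. The log2 fold change was -0.63 (SE 0.18, adjusted p = 0.0135, limma), where 25.1% of all entries were called lower in IMF. The call was lost without the filter, under median-of-ratios scaling (-0.31, adjusted p = 0.130), with edgeR (-0.30) and with DESeq2 (-0.36), and without BF-8d replicate 2 (-0.54) or 3 (-0.53). The median log2 fold change of all 430 entries in this comparison was -0.28 and moved by 0.25 under median-of-ratios scaling.

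On the other days miR-455-5p differed from BF to IMF by -0.46 (day 0), -0.27 (day 2) and -0.42 (day 4) on the log2 scale. On day 0 the BF libraries had 468, 339.8 and 381 TPM and the IMF libraries 304, 235 and 328 TPM, without overlap, as for 47.7% of all entries, but the adjusted p was 0.108 (limma). With the replicate number as a block it was 0.0434, and the log2 fold change of -0.46 stayed under the fold criterion. Averaged over the 4 days the difference was -0.45 (SE 0.095, adjusted p = 2.31e-04, limma), under the fold criterion, and it was -0.18 (adjusted p = 0.0521) under median-of-ratios scaling. The sign was the same in all alternative fits. Over the days its mean went from 396 to 286, 346 and 468 TPM in BF and from 289 to 237, 260 and 297 TPM in IMF, and it was called in 0 comparisons within a source.

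The other arm, miR-455-3p, rose late in IMF. The IMF libraries had 74.7, 65.0 and 77.9 TPM on day 0, 76.9, 61.6 and 76.6 TPM on day 2 and 66.1, 67.8 and 81.3 TPM on day 4. On day 8 they had 115.6, 105 and 99.3 TPM, above all IMF libraries of the earlier days. Between day 4 and day 8 the libraries did not overlap for 38.4% of all entries. The log2 fold change was 0.55 between day 0 and day 8 (SE 0.12, adjusted p = 0.0156, limma) and 0.57 between day 4 and day 8 (SE 0.14, adjusted p = 0.0374, limma). Both passed the FDR but stayed just under the fold criterion, so miR-455-3p was not a DE-miRNA. In IMF-4d vs IMF-8d, where 13.0% of entries were called, the log2 fold change was smaller under median-of-ratios scaling (0.38, adjusted p = 0.0586), with edgeR (0.35, adjusted p = 0.103) and with DESeq2 (0.34, adjusted p = 0.0960). The adjusted p was 0.0906 without the filter on low values, 0.112 with a replicate block and from 0.0779 to 0.135 without any one library other than IMF-4d replicate 3. Between day 0 and day 8 it was 0.0562 without IMF-8d replicate 2. In IMF-4d vs IMF-8d miR-455-3p was a DE-miRNA without IMF-4d replicate 3 (0.66), and between day 0 and day 8 without IMF-0d replicate 3 (0.60) or IMF-8d replicate 3 (0.60).

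In BF, miR-455-3p had 77.2, 89.1 and 63.6 TPM on day 4 and 112, 134 and 119.9 TPM on day 8, without overlap, as for 26.5% of all entries. The log2 fold change of 0.67 (SE 0.22) had an adjusted p of 0.122 (limma), in a comparison where 3.02% of entries were called. Over the whole course BF changed less, from 135, 86.2 and 97.3 TPM on day 0, with a log2 fold change of 0.22 (SE 0.21, adjusted p = 0.427, limma). Between the sources it was -0.52 on day 0 (SE 0.19, adjusted p = 0.0913, limma) and -0.19 on day 8. The average of -0.26 (SE 0.090, adjusted p = 0.0151, limma) went to 8.73e-04 under median-of-ratios scaling.

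The arms of miR-455 kept a narrower ratio than those of miR-193a. The ratio of 5p to 3p lay between 2.74 and 4.98 in the 24 libraries. On day 8 it was 3.13, 3.91 and 4.42 in BF and 2.74, 2.81 and 2.81 in IMF. The difference between the sources of -0.18 on the log2 scale had an adjusted p of 0.0600, and the variation between days an adjusted p of 0.0702 in BF and 0.0616 in IMF, all in exact permutation tests.

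In all, the 12 comparisons of groups gave 6 calls among 72 tests of the 6 entries, 4 of them for miR-365-5p and 1 each for miR-193a-5p and miR-455-5p. Over all entries 17.9% of the tests in these comparisons gave a call. Between adjacent days 0 of the 6 entries were called when each pair of groups was fitted on its own to the deposited values with limma. One limma fit of all 24 libraries called miR-193a-5p in BF-0d vs BF-2d (adjusted p = 0.0454) and miR-365-5p (0.0103) and miR-455-3p (0.00969) in BF-4d vs BF-8d. That fit called 46 and 81 of all 430 entries in these 2 comparisons. The number with an unadjusted p under 0.05 was 2 in BF-0d vs BF-2d (miR-193a-5p and miR-455-5p), 0 in BF-2d vs BF-4d and 2 in BF-4d vs BF-8d (miR-365-5p and miR-455-3p), against 104, 117 and 99 of all 430 entries. In IMF it was 0, 1 (miR-365-5p from day 2 to day 4, -0.53) and 1 (miR-455-3p), against 68, 65 and 139 of all entries. edgeR and DESeq2 each called 1 of the 6 entries in BF-0d vs BF-2d, miR-193a-5p, where each called 56 of all 430, and 0 in the other 5. Of all entries 6.05% were called in BF-2d vs BF-4d and 0.0% in IMF-0d vs IMF-2d and in IMF-2d vs IMF-4d. In these last comparisons edgeR called 7 and 1 entries and DESeq2 9 and 2.

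Between the sources, limma called 0 of the 6 entries on day 0, where 29.3% of all entries were called, and 0 on day 2, where 12.3% were called. An unadjusted p under 0.05 was found for 2 of them on day 0 (miR-455-3p and miR-455-5p) and for 0 on day 2, against 187 and 125 of all 430 entries, and edgeR and DESeq2 called 0 on either day. Averaged over the 4 days 1 of the 6 was called, miR-365-5p with a log2 fold change of -0.61 (SE 0.098, adjusted p = 5.95e-06, limma), where 31.6% of all entries were called. Under median-of-ratios scaling this average was -0.36 (adjusted p = 9.57e-04), below the fold criterion, and without replicate 2 it was -0.54 (adjusted p = 0.00148). The median log2 fold change over the 6 entries was -0.31 in BF-8d vs IMF-8d and -0.24 on average over the days, against -0.28 and -0.22 over all 430 entries.

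Over the 24 libraries the arms of miR-455 moved together (Pearson r = 0.758, n = 24 libraries), those of miR-365 less (r = 0.404) and those of miR-193a hardly (r = 0.041). miR-365-5p and miR-455-5p had r = 0.728 over all libraries, 0.857 among the 12 BF libraries and -0.034 among the 12 IMF libraries. These correlations of log2(TPM + 1) are descriptions, and the values of a library share its depth and scaling. Among 219 other entries whose mean reached 10 TPM, the pattern of miR-365-5p was most like those of miR-2320-3p (r = 0.750), miR-425-5p (0.742) and miR-221-3p (0.742). For miR-365-3p they were miR-361-3p (0.705), miR-19b (0.687) and miR-19a (0.651).

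For miR-455-5p the most alike were miR-126-3p (r = 0.857), miR-181d-5p (0.838) and miR-221-3p (0.833), and for miR-455-3p they were miR-26b-5p (0.795), miR-199a-3p and miR-199b-3p (both 0.741). For miR-193a-5p they were miR-99a-5p (0.768), miR-143-5p (0.765) and miR-130b-5p (0.758). For miR-193a-3p they were miR-148a-5p (0.645), miR-133a-3p (0.487) and miR-574-3p (0.467).

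miR-126, a miRNA of endothelial cells, was itself higher in BF. Its 2 arms summed to 51.2 to 90.9 TPM in BF-8d and 24.6 to 34.8 TPM in IMF-8d, and to 53.6 to 86.4 and 18.7 to 30.9 TPM on day 4. In BF-0d it was at 38.1 to 71.2 TPM, which overlaps BF-8d. From day 0 to day 8 in BF, miR-126-5p rose by 0.71 on the log2 scale (SE 0.25, adjusted p = 0.0283, limma), from a mean of only 1.23 TPM to 2.71 TPM. miR-126-3p had a log2 fold change of 0.29 (SE 0.27, not called). Of these 2 arms 0 were called under median-of-ratios scaling and with DESeq2, and 1 was called higher with edgeR. In this comparison 27.9% of all entries were called higher and 14.9% lower. The part of this marker in the differences of miR-365-5p and miR-455-5p was not tested, and in bulk samples fewer cells of a type and less RNA per cell cannot be told apart. Skeletal muscle miRNAs (miR-1, miR-133a, miR-133b and miR-206) summed to 1316 to 2349 TPM in BF-8d and 972 to 1620 TPM in IMF-8d, nearly all of it miR-1. On day 0 they summed to 800 to 990 TPM in BF and 898 to 1727 TPM in IMF, and on day 2 to 459 to 529.8 TPM in BF and 801 to 1054 TPM in IMF. On day 4 the sums were 1034 to 1512 TPM in BF and 684 to 972 TPM in IMF. From day 0 to day 8 both tested entries rose in BF, miR-1 by 0.91 and miR-133a-3p by 1.43 on the log2 scale. Stepwise, their median log2 fold change in BF was -0.29 up to day 2, 1.13 on to day 4 and 0.33 on to day 8. For miR-365-5p the same steps were -0.41, 0.41 and 0.72, none of them called when each pair was fitted on its own. The largest step of the muscle entries thus came before day 4, and that of miR-365-5p after it. In IMF miR-133a-3p rose by 0.84 and miR-1 had a log2 fold change of -0.05 (SE 0.29, not called). The part of these markers in the rise of miR-365-5p in BF and in its differences between the sources was not tested. Of the 8 mesenchymal entries 4 fell and 1 rose from day 0 to day 8 in BF (median -0.67 against 0.15 over all entries). Among them miR-143-5p was lower by -1.28. Of all entries 14.9% were called lower and 27.9% higher there. On day 8 2 of the 8 were higher in IMF than in BF and 0 lower (median 0.42 against -0.28), against 12.1% and 25.1% of all entries. Under median-of-ratios scaling 5 were higher, in a fit that called 147 of all 430 entries in either direction. The part of the mesenchymal entries in the fall of miR-193a-5p in BF and in the differences between the sources was not tested. miR-206 was listed at 0 in 13 of the 24 libraries.

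Other miRNAs known from work on brown or beige fat were set beside these entries. Of those named as promoters of it (miR-26, miR-30b and miR-30c, miR-32, miR-129, miR-149, miR-182, miR-196a, miR-328 and miR-378), 18 entries were listed and 17 tested. The place of miR-149 among them is doubtful, since its 3p arm is known to repress Prdm16, a main factor of brown fat. Without it, a choice made after the values were seen, the counts below were the same within BF and within IMF, and on day 8 5 of 16 were lower in IMF and 1 higher. From day 0 to day 8 in BF, 7 rose and 0 fell, with a median log2 fold change of 0.26 over the 17 against 0.15 over all entries, of which 27.9% were called higher and 14.9% lower. In IMF 8 rose and 0 fell, with a median of 0.51 against 0.07 over all entries, of which 19.8% were called higher and 10.7% lower. miR-30b-5p, which with miR-30c represses the corepressor RIP140, rose by 2.93 in BF and 2.78 in IMF on the log2 scale. miR-182 rose by 3.31 in BF and had a log2 fold change of 0.03 in IMF (SE 0.28, not called). miR-129a-5p and miR-129b, which had nearly the same values in all libraries, rose by 2.81 in BF and 1.46 in IMF. Both stand in the counts of promoter entries that rose, although they give nearly the same signal.

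Between the sources on day 8, 6 of the 17 promoter entries were lower in IMF and 1 was higher, with a median of -0.28, and -0.28 over all entries, of which 25.1% were called lower and 12.1% higher. Under median-of-ratios scaling 4 were lower and 2 higher, with a median of 0.02. miR-378, encoded within the gene of the coactivator PGC-1beta, was lower in IMF by -1.69 and miR-182 by -1.75. miR-196a, which lies in HOX clusters, was higher in IMF by 1.54. Of the 17 entries, only these 3 differed by more than the -1.504 of miR-365-5p.

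Of the miRNAs known to inhibit brown or beige fat (let-7i, miR-27, miR-34a, miR-93, miR-106b, miR-125b, miR-133, miR-155, miR-199a and miR-214), 16 entries were listed and 13 tested. miR-93 and miR-106b had none. In BF 4 rose and 5 fell from day 0 to day 8, with a median of -0.37 against 0.15 over all entries, and in IMF 6 rose and 0 fell, with a median of 0.38 against 0.07. The shares of all entries called higher and lower were 27.9% and 14.9% in BF and 19.8% and 10.7% in IMF. Under median-of-ratios scaling, with edgeR and with DESeq2 6 fell in BF, and in IMF 0, 1 and 1 fell and 6, 6 and 5 rose. miR-155-5p rose by 1.4997 in BF and 0.87 in IMF, and miR-34a by 1.46 and 0.75. miR-27b-3p, which represses Prdm16, fell by 0.94 in BF and had a log2 fold change of 0.05 in IMF (SE 0.19, not called). On day 8 1 of the 13 was higher in IMF (12.1% of all entries) and 2 were lower (25.1%), miR-155-5p by -0.98 and miR-34a by -1.27. Under median-of-ratios scaling 5 were higher in IMF and 2 lower, with a median of 0.24. The inhibitor list shares miR-133 with the muscle markers and miR-199a and miR-214 with the mesenchymal ones.

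**Figure D4:**
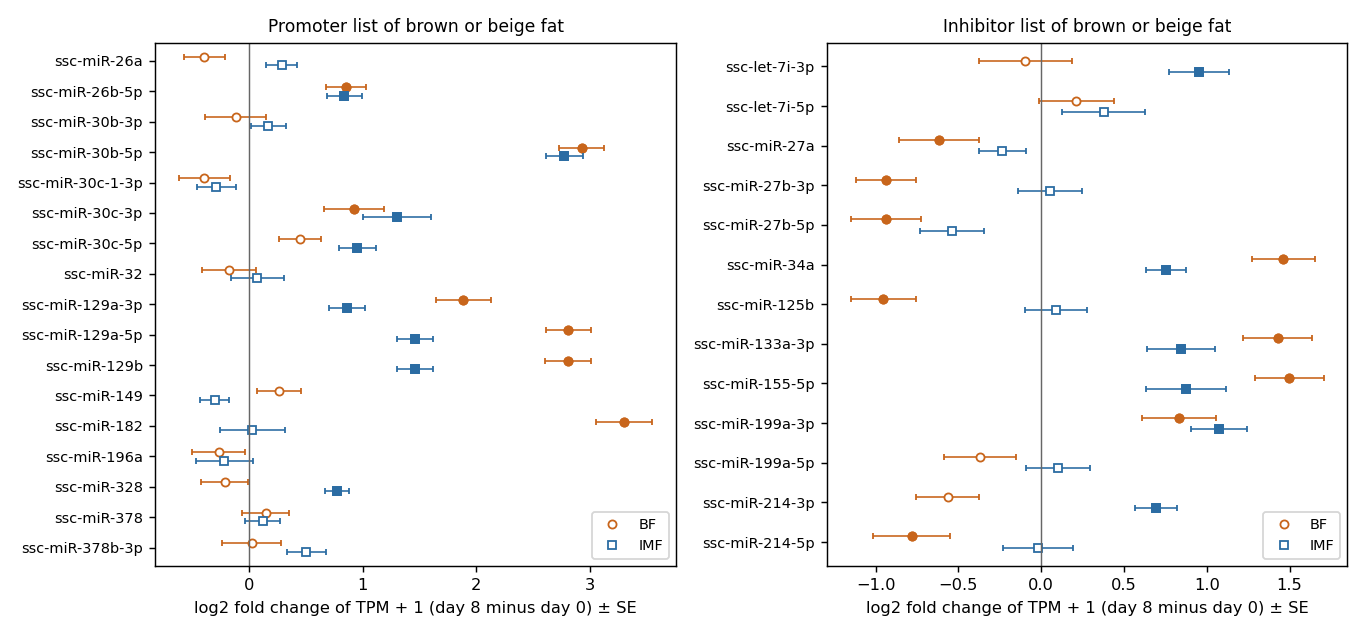
Log2 fold change of TPM + 1 from day 0 to day 8 with its SE, for the 17 tested entries of the promoter list and the 13 of the inhibitor list, in BF (circles) and IMF (squares), DE-miRNAs filled. 7 promoter entries rose in BF and 8 in IMF, and 0 fell in either. Of the inhibitor entries 4 rose and 5 fell in BF, and 6 rose and 0 fell in IMF. Of all entries 27.9% were called higher and 14.9% lower in BF, and 19.8% and 10.7% in IMF.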

How the data were processed

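Small RNA libraries of 24 cultures were analysed. According to the methods and the submitters' processing notes, the authors cleaned the reads, mapped them with Bowtie to Sscrofa11.1 without mismatches, took known miRNAs from miRBase and new ones from miRDeep2, and used DESeq2. The deposited values are RPM, called TPM by the authors: the reads of an entry in every 1000000 miRNA reads of its library. All 38088 values lay within 0.01 of a whole number of reads, so reads were recovered for count tests.

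The 430 entries whose mean over the 24 libraries reached 1 TPM were tested with limma 3.58.1 (trend) in R 4.3.3 on log2(TPM + 1), each pair of groups on its own, the interaction and the average over all libraries. edgeR 4.0.16 (quasi-likelihood) called 188 entries in BF-0d vs BF-8d, 147 in IMF-0d vs IMF-8d and 151 in BF-8d vs IMF-8d, against 184, 131 and 160 by limma. DESeq2 1.42.0, no filter or a filter at a mean of 10 TPM, 0.1 as the pseudocount, median-of-ratios scaling, one fit of all libraries, a replicate block and leaving out libraries were the other alternatives. Arm ratios were tested by exact permutation (SciPy 1.17.1, NumPy 2.4.6, pandas 2.3.3, Python 3.11.15, Matplotlib 3.10.9). The fits were tested on simulated data.

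Log2 fold changes are given as later against earlier day, and as IMF against BF. The paper does not link libraries to piglets, so p-values measure the spread between these libraries. Deviations of libraries of one number correlated above 0.1 for every number only in BF-0d vs IMF-0d (from 0.188 to 0.509), where the block changed no call of the 6 entries.

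Named are the 6 entries, entries with their mature sequence or seed, for each the 3 entries most like it, and list members needed to read a count. The entries and lists were chosen with earlier results of these data known. novel_miR_188 and the ratio of miR-365-5p to miR-193a-5p were added after values were seen.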

Additional observations from a re-analysis of the deposited data

Results flagged for a closer look

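The time course of miR-365-5p differed between the sources (moderated F test of limma, adjusted p = 2.69e-04): from day 0 to day 8 it rose in BF by 0.72 and fell in IMF by 0.65 on the log2 scale. Of all 430 entries 31.6% passed this test. The rise in BF lost its call in 6 of 14 alternative fits and the fall in IMF in 5 of 14. No other of the 6 entries passed the interaction test on the deposited values with limma. However, miR-455-3p passed it under median-of-ratios scaling (0.0483), with edgeR (0.0391) and with DESeq2 (0.0194).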

How the results depend on the processing

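In limma results where any of the 6 entries was called, the number called was within 1.5 times that reported in 48 of 76 alternative fits, and where 0 were called it stayed 0 in 106 of 112. For BF-0d vs BF-2d it was 1 instead of 0 under median-of-ratios scaling, edgeR, DESeq2 and one fit of all 24 libraries, and for BF-4d vs BF-8d 2 in that one fit. For BF-0d vs BF-8d it was 1 instead of 2 without a filter, under median-of-ratios scaling and with DESeq2, and from 1 to 2 without a library. For IMF-0d vs IMF-8d it was 0 instead of 1 without a filter and from 0 to 1 without a library, and for IMF-4d vs IMF-8d from 0 to 1 without a library. For BF-4d vs IMF-4d it was 0 instead of 1 without a filter, under median-of-ratios scaling, with edgeR and with DESeq2, and from 0 to 1 without a library. For BF-8d vs IMF-8d it was 1 instead of 2 in those 4 fits, and from 1 to 3 without a library. The interaction gave 2 instead of 1 and the average over the days 0 instead of 1 under median-of-ratios scaling, edgeR and DESeq2, and the average from 0 to 1 without a replicate number. Arm ratios between sources gave 2 instead of 1 with a pseudocount of 1 TPM, 0 with the replicate block and 0 without any replicate number, and those between days 4 instead of 3 with a pseudocount of 1 TPM and 0 without any replicate number. The causes were not tested.

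The averaged difference between the sources turned sign for miR-193a-5p under median-of-ratios scaling (0.21), edgeR (0.24), DESeq2 (0.22) and without replicate 2 (0.0779), for miR-365-3p under the first 3 (0.0434, 0.0387 and 0.00437) and for miR-455-3p under the first 2 (8.73e-04 and 0.0124). None of these was called. For miR-193a-5p the adjusted p fell as low as 0.0283 among the alternative limma, edgeR and DESeq2 fits, but the fold criterion was not reached. Median-of-ratios scaling moved the median log2 fold change of all entries between the sources by 0.12, 0.13, 0.34 and 0.25 on days 0, 2, 4 and 8, by -0.15 in BF-0d vs BF-8d and in IMF-4d vs IMF-8d, and by 0.13 in IMF-2d vs IMF-4d.

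The replicate block changed no call of the 6 entries in the 14 limma results, with 2 called in BF-8d vs IMF-8d as without it. Outside BF-0d vs IMF-0d no comparison had correlations above 0.1 for every replicate number. Correlations of single numbers ran from -0.329 (BF-8d vs IMF-8d) to 0.285 (BF-0d vs BF-2d). Of all entries the block called 0 instead of 18 in BF-0d vs BF-2d, 42 instead of 26 in BF-2d vs BF-4d and 9 instead of 53 in BF-2d vs IMF-2d. miR-193a-3p rests on 6 to 33 reads a library, and counting error limits its values.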
